A study of Mus musculus with 28 samples.

Results

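The step between the DN2/3 and DN4 stages of thymocyte development was examined in mouse thymocytes that carried an Lmo2 transgene and lacked Ldb1. The members were the libraries titled Lmo2tg; Ldb1-KO in the count table, 5 of DN4 and 5 of DN2/3 cells, with equal replicate numbers taken as pairs. These were 10 of the 28 libraries of the series, and all genes that passed a filter on low counts were tested.

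The study measured messenger RNA by RNA sequencing in sorted DN4 and DN2/3 thymocytes of 3 genotypes. By label, the genotype Lmo2tg; Ldb1-KO, called Ldb1-KO here, had both the transgene for Lmo2 and the loss of Ldb1, at DN4 and at DN2/3 alike. The other genotypes were Lmo2tg, which carried the transgene alone (5 libraries per stage), and wild type, with neither (4 per stage). The growth protocol names a floxed Ldb1 allele, a Rosa26-EYFP reporter and Cre lines driven by Lck, Rag1 and IL-7Ra. The sources used here do not say which of these was used, which promoter drove the transgene, which exons were deleted or how old the mice were. The series design gives 4 Ldb1-KO replicates, while the sample titles give 5, and the titles were followed. No label ties a replicate to an animal of its own, so a p-value here covers only the spread among the libraries. Replicates 1 to 3 and replicates 4 and 5 of Ldb1-KO differed in genes of the sex chromosomes. Xist, transcribed from the inactive X chromosome of females, ran 0.235 to 0.646 CPM (counts per M counts, with library sizes scaled by TMM) in DN4 and 0.342 to 1.75 CPM in DN2/3 of replicates 1 to 3, against 1594 and 1746 CPM in DN4 and 2027 and 2304 CPM in DN2/3 of replicates 4 and 5. The Y-linked Ddx3y was at 55.3 CPM or more in every library of replicates 1 to 3 and at 0.343 CPM or less in those of replicates 4 and 5. The labels call the cells CD4 T cells, whereas the subset names are those of thymocytes without surface CD4 or CD8. The wild-type libraries carry another series of library names than the transgenic ones, so a difference between library series and a difference between wild type and Ldb1-KO cannot be told apart.

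T-cell precursors pass through the DN2 and DN3 stages, during which Notch signals drive commitment and the T-cell receptor beta locus is rearranged. Cells that make a working beta chain signal through the pre-T-cell receptor, lose CD25 (the product of Il2ra), divide, and become DN4 cells, which go on to express CD4 and CD8. Lmo2 is a LIM-only adaptor protein and a T-cell leukemia oncogene, and Ldb1 is the LIM-domain-binding cofactor that joins it to Tal1 or Lyl1, E proteins and Gata factors in one DNA-binding complex. DN4 and DN2/3 were separate sorted populations, so the values compare populations and do not follow cells.

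The 10 libraries held 28.1 to 68.1 M counts each. Every library of replicates 1 to 3 held 57.94 M or more, and those of replicates 4 and 5 held 36.72 M or less. Depth (total counts) thus split the replicates as Xist did, and the 2 cannot be told apart. Ldb1 (GRCm38 chr19:46031570-46045214, minus strand) stood at 21.4, 6.11, 33.9, 54.7 and 12.2 CPM in DN4 replicates 1 to 5, against 120.0, 57.1, 84.2, 113 and 116 CPM in DN2/3 replicates 1 to 5. Every DN4 library was below every DN2/3 library (log2 fold change -2.20 ± 0.45 (SE), adjusted p = 0.0114, by edgeR's quasi-likelihood test with pairs and Benjamini-Hochberg adjustment, as for all adjusted p that follow). Without replicate 1 the adjusted p was 0.055. All 10 values lay far below those of the other genotypes, whose Ldb1 means were 345 CPM in Lmo2tg DN4, 397 in Lmo2tg DN2/3, 358 in wild-type DN4 and 511 in wild-type DN2/3. The stage difference in Ldb1 was larger in Ldb1-KO than in Lmo2tg (difference of log2 fold changes -2.02 ± 0.35, adjusted p = 0.00264) and than in wild type (-1.73 ± 0.37, adjusted p = 0.00644), but both calls were lost without replicate pairs (adjusted p = 0.0616 and 0.207). The counts cover the whole gene, so a transcript that lacks only the deleted exons still adds to them. In bulk RNA, fewer cells of a type and less RNA per cell cannot be told apart, here and in every result that follows.

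Lmo2 (GRCm38 chr2:103957986-103981878, plus strand) had 53.2, 50.2, 41.2, 36.7 and 45.7 CPM in DN4 and 43, 25.3, 31.9, 26.4 and 26.2 CPM in DN2/3. It was higher in DN4 in each of the 5 pairs (log2 fold change 0.61 ± 0.10 (SE), adjusted p = 0.00117), although replicate 1 of DN2/3 lay within the DN4 range, and the call was lost when all 28 libraries were fitted without pairs (adjusted p = 0.0615). Counts per gene symbol do not separate RNA of the Lmo2 transgene from that of the gene at this position. Against wild type, the difference of log2 fold changes was 1.68 to 3.06 over 14 alternative settings, called in all. Against Lmo2tg it was 0.05 to 0.28 over 15 settings, called in none. The stage labels matched the surface gene that textbooks use to separate these stages. Il2ra had 37.4, 36.1, 73.2, 52.2 and 25.1 CPM in DN4 and 1053, 1951, 1229.7, 1286 and 1459 CPM in DN2/3, with no overlap. Kit, the stem cell factor receptor that marks DN2 cells, had 43.8, 24.8, 63.3, 36.4 and 32.6 CPM in DN4 and 170.0, 110.1, 149.7, 113 and 124 CPM in DN2/3. As sorting may have used these proteins, their RNA checks the labels and is no finding.

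**Figure D1:**
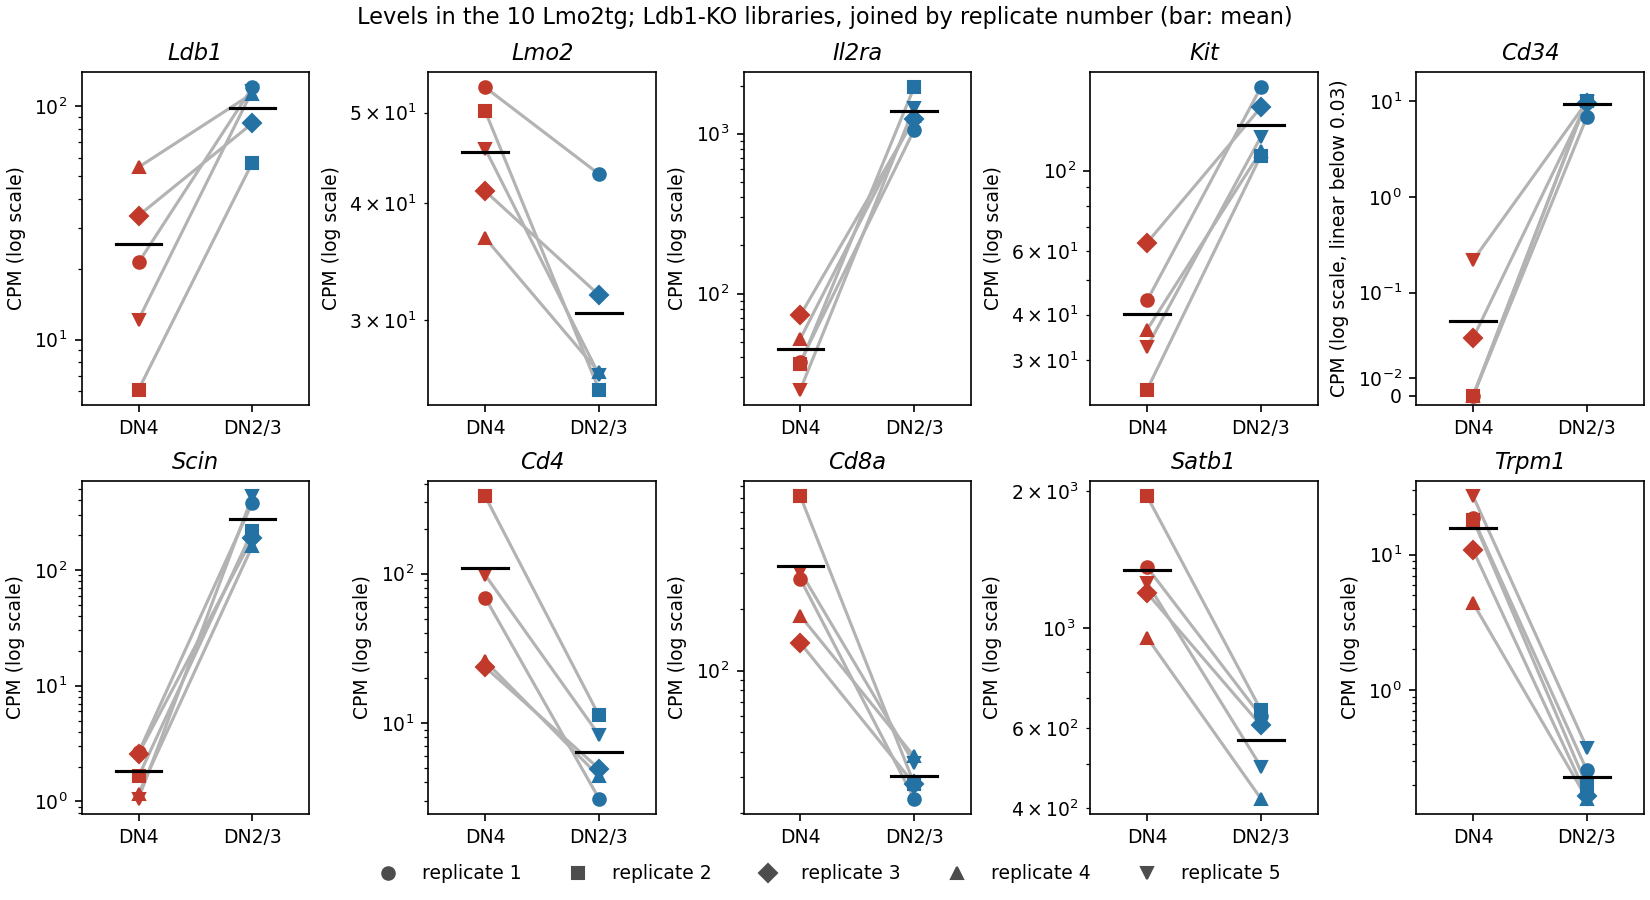
Levels of 10 genes (CPM, log axes, the Cd34 axis linear below 0.03) in the Ldb1-KO libraries, with DN4 left, DN2/3 right, lines joining equal replicate numbers and bars at the means. Il2ra, Kit, Cd34, Scin and Ldb1 are lower in DN4 in all 5 pairs, and Lmo2, Cd4, Cd8a, Satb1 and Trpm1 are higher.

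Of 13363 genes tested, 7978 (59.7%) differed between the stages at an adjusted p below 0.05, of which 4174 (31.2% of those tested) were higher and 3804 (28.5%) lower in DN4. Large differences were more often falls: 561 genes rose and 1168 fell by more than 2-fold, and 81 rose and 206 fell by more than 8-fold. The median log2 fold change of all tested genes was 0.01. In 3287 genes (24.6%) the DN4 and DN2/3 libraries did not overlap. The balance of directions depended on the processing. Of the genes called, 43.5% were higher in DN4 with upper-quartile scaling, 46.7% when all 28 libraries were fitted with pairs and 43.7% when these were fitted without, against 49.9 to 52.5% in the other alternatives run. Fitted without pairs, the same 10 libraries gave 4934 genes. The counts for gene lists below stand beside the 31.2% of all tested genes that were higher and the 28.5% that were lower.

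**Figure D2:**
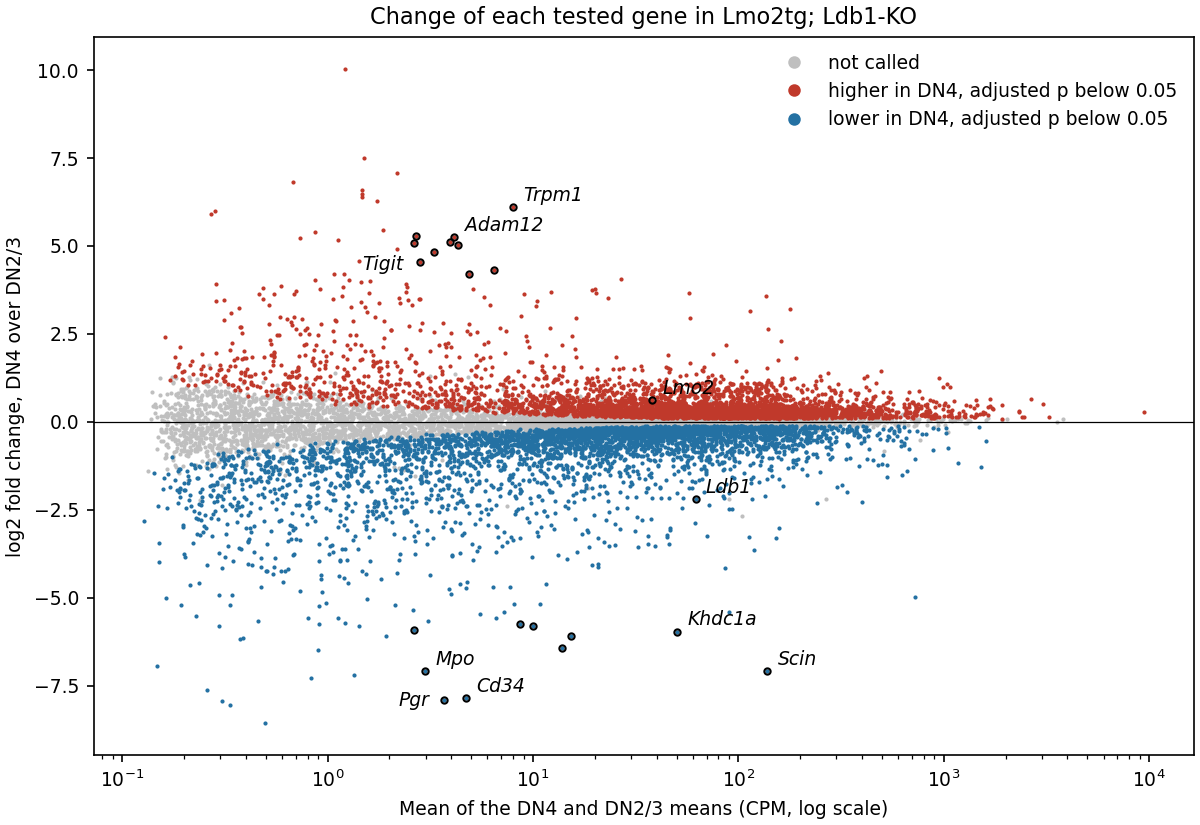
Log2 fold change of each of the 13363 tested genes against its mean level (CPM, log axis) in Ldb1-KO. Points above 0 are higher in DN4, and grey points were not called. Circles mark Ldb1, Lmo2 and the 20 largest changes, such as Trpm1 at 6.09 and Cd34 at -7.86. These changes were ranked among called genes with 5 CPM or more in the higher stage, the same direction in all pairs and no overlap. Predicted genes and receptor segments were left out.

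The largest rises were ranked among called genes with a mean of 5 CPM or more in the higher stage. These genes also had to move alike in all 5 pairs without overlap of the stages. Predicted genes and receptor segments were left out. The genes so ranked were nearly silent in DN2/3. Trpm1, a cation channel of the TRP family (GRCm38 chr7:64153835-64269775, plus strand), had 18.5, 18.1, 10.7, 4.38 and 26.8 CPM in DN4, against 0.257, 0.198, 0.168, 0.159 and 0.377 CPM in DN2/3 (log2 fold change 6.09 ± 0.19 (SE), adjusted p = 1.22e-06). Adam12, a membrane-bound metalloprotease, had 6.76, 23.2, 2.12, 1.1 and 7.29 CPM in DN4 and 0.114, 0.621, 0.101, 0.106 and 0.0686 CPM in DN2/3 (log2 fold change 5.26 ± 0.31 (SE), adjusted p = 1.24e-05). Replicate 2 was the highest library of its stage for Adam12 in both groups. Tigit, an inhibitory receptor of T and NK cells, had 6.22, 6.2, 3.06, 1.33 and 10.5 CPM in DN4 and 0.314, 0.169, 0.336, 0.133 and 0 CPM in DN2/3 (log2 fold change 4.56 ± 0.57 (SE), adjusted p = 0.000541). Replicate 4 was the lowest DN4 library for Trpm1, Adam12 and Tigit alike. That every DN4 library exceeded every DN2/3 library was a condition of the ranking and is no result. The other 7 of these rises, Lysmd2, Cldn10 (a tight-junction claudin), Art2b (a T-cell surface ADP-ribosyltransferase), Tdrp, Arhgap20 (a GTPase-activating protein), Myo1e (a class I myosin) and Prr5l, had log2 fold changes between 4.21 and 5.30.

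The largest falls, ranked in the same way, went to near 0 in DN4. Cd34, a surface sialomucin of hematopoietic progenitors (GRCm38 chr1:194938819-194961279, plus strand), had 0, 0, 0.0336, 0 and 0.218 CPM in DN4, against 6.83, 10.1, 9.58, 10.3 and 9.81 CPM in DN2/3 (log2 fold change -7.86 ± 0.56 (SE), adjusted p = 4.27e-05). Scin, an actin-severing protein (GRCm38 chr12:40059769-40134228, minus strand), had 2.65, 1.65, 2.59, 1.17 and 1.06 CPM in DN4 and 379, 217, 187, 161 and 432 CPM in DN2/3 (log2 fold change -7.08 ± 0.33 (SE), adjusted p = 5.2e-05). Here too the ranking took only genes whose stages did not overlap. Mpo, the myeloperoxidase of granulocyte precursors, had 0, 0.0588, 0.0672, 0 and 0.0623 CPM in DN4 and 2.77, 9.02, 4.2, 8.64 and 5.11 CPM in DN2/3 (log2 fold change -7.08 ± 0.38 (SE), adjusted p = 9.22e-06). Il31ra, a cytokine receptor subunit, had 0.592, 0.118, 0.537, 0.0974 and 0 CPM in DN4 and 25.3, 23.1, 21.8, 20.9 and 45.6 CPM in DN2/3 (log2 fold change -6.43 ± 0.57 (SE), adjusted p = 0.000322), with replicate 5 the highest of DN2/3. Pgr, the progesterone receptor, had 0, 0, 0, 0.0649 and 0.0623 CPM in DN4 and 0.371, 0.325, 0.638, 5.24 and 30.1 CPM in DN2/3 (log2 fold change -7.90 ± 0.39 (SE), adjusted p = 8.03e-06). For Pgr the DN2/3 level came mostly from replicate 5, and next from replicate 4, the pairs with high Xist and lower depth. The part of sex or depth in this was not tested. Over all 5 DN4 libraries together Pgr had 4 counts, Cd34 9 and Mpo 10, so the size of these falls is imprecise. The other falls were Emilin2 (a matrix glycoprotein), Lpcat2 (a lysophospholipid acyltransferase), Sytl4 (granuphilin), Khdc1a and Khdc1c, with log2 fold changes between -6.09 and -5.75. Khdc1a and Khdc1c are related genes that share 26.4% and 27% of their stretches of 101 bases, the read length, so their counts cannot be fully told apart.

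Among the partners of Lmo2 and Ldb1, 3 of the 16 tested rose and 8 fell, beside 31.2% and 28.5% of all genes tested, with a median log2 fold change of -0.21. Tal1, the bHLH partner and a leukemia oncogene, had 0.0338, 0.0588, 0.0336, 0 and 0 CPM in DN4 and 1.43, 1.71, 1.58, 1.78 and 1.44 CPM in DN2/3 (log2 fold change -5.56 ± 0.43 (SE), adjusted p = 2.4e-05), so the gene was near 0 in DN4 (8 counts in all) and low in DN2/3. Tcf4, an E protein, had 39.6, 43.9, 54.7, 37.8 and 31.3 CPM in DN4 and 64.3, 76.9, 77.8, 54.1 and 59 CPM in DN2/3 (log2 fold change -0.66 ± 0.07 (SE), adjusted p = 6.98e-05), falling in every pair although replicate 3 of DN4 lay above replicate 4 of DN2/3. Lmo4, a LIM-only relative of Lmo2, rose (62.4 ± 4.83 CPM in DN4 and 42.4 ± 6.57 in DN2/3, SD, n = 5 each, log2 fold change 0.59). Gata3, Tcf3 and Tcf12, the Gata factor and E proteins abundant in thymocytes, did not pass the test (log2 fold changes -0.08, -0.04 and 0.04).

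Stem and progenitor regulators were lower in DN4: 18 of the 22 tested fell and 4 did not pass, beside 28.5% of all genes tested that fell, with a median log2 fold change of -2.00. Kit, whose RNA only checks the stage labels, is among the 18. Bcl11a, a zinc-finger factor of progenitors and B cells, had 0.135, 0.323, 0.772, 0.52 and 0.0623 CPM in DN4 and 4.58, 12.6, 10.3, 9.14 and 5.93 CPM in DN2/3 (log2 fold change -4.62 ± 0.31 (SE), adjusted p = 2.25e-05). Mef2c, a MADS-box factor, had 0.338, 0.881, 1.39, 1.1 and 0.374 CPM in DN4 and 2.11, 5.59, 6.43, 4.78 and 2.68 CPM in DN2/3 (log2 fold change -2.43 ± 0.17 (SE), adjusted p = 1.96e-05). Mycn, a Myc-family factor, had 5.09, 3.56, 4.06, 5.78 and 3.99 CPM in DN4 and 19.4, 26.1, 17.6, 28.4 and 29 CPM in DN2/3 (log2 fold change -2.38 ± 0.16 (SE), adjusted p = 2.25e-05). All 3 fell in each pair with no overlap, and Bcl11a and Mef2c were lowest in replicates 1 and 5 at either stage. Hhex, Lyl1 and Erg, progenitor factors singled out after their values were seen, ranged widely in DN4: Hhex ran 0.338 to 17.2 CPM in DN4 and 23.3 to 46.3 CPM in DN2/3 (log2 fold change -2.56 ± 0.79 (SE), adjusted p = 0.0446). Erg ran 0.235 to 16.3 CPM in DN4 and 54.3 to 75.9 CPM in DN2/3 (log2 fold change -3.47 ± 0.93 (SE), adjusted p = 0.0308), and Lyl1 1.47 to 18.3 CPM in DN4 and 18 to 54.1 CPM in DN2/3 (log2 fold change -2.24 ± 0.44 (SE), adjusted p = 0.00882). The summed level of the list, Kit included, was 225 to 396 CPM in DN4 and 673 to 867 CPM in DN2/3.

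Notch receptors and targets fell almost as a group, 15 of 16, beside 28.5% of all genes tested, with a median log2 fold change of -0.95. Il2ra, whose RNA only checks the stage labels, is among the 15. Notch1, the receptor that drives T-lineage commitment, had 639.7, 542, 623, 1144 and 623 CPM in DN4 and 1353, 1655, 1170.4, 2201 and 1729 CPM in DN2/3 (log2 fold change -1.18 ± 0.12 (SE), adjusted p = 0.000177). Heyl, a bHLH repressor induced by Notch, had 2.64, 2.07, 2.22, 3.12 and 1.56 CPM in DN4 and 10.2, 6.19, 5.69, 11 and 8.13 CPM in DN2/3 (log2 fold change -1.77 ± 0.15 (SE), adjusted p = 3.52e-05). Lfng, the glycosyltransferase that tunes Notch receptors, had 19.8, 18.9, 18.9, 22.1 and 28.7 CPM in DN4 and 44.7, 37.8, 29.9, 45 and 39.9 CPM in DN2/3 (log2 fold change -0.84 ± 0.10 (SE), adjusted p = 0.000196). None of these overlapped between stages, and replicate 4 was the highest library of its stage for Notch1 in both groups. The exception was Trib2, a pseudokinase, which rose (76.5 ± 6.76 CPM in DN4 and 42.8 ± 8.36 in DN2/3, SD, n = 5 each, log2 fold change 0.89 ± 0.15 (SE), adjusted p = 0.00307).

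T-lineage transcription factors moved both ways, 13 up and 8 down of 27 tested, with a median of 0.06. Satb1, a chromatin organizer, had 1359, 1949, 1192, 951 and 1255 CPM in DN4 and 639, 659, 609.6, 420.1 and 494 CPM in DN2/3 (log2 fold change 1.26 ± 0.08 (SE), adjusted p = 2.07e-05). Runx1 fell, with 194, 179, 212, 182 and 169 CPM in DN4 and 379, 377, 347, 333 and 364 CPM in DN2/3 (log2 fold change -0.92 ± 0.06 (SE), adjusted p = 1.47e-05). In both genes the stages stood apart, and replicate 2 was the highest DN4 library for Satb1.

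Coreceptor RNA was higher in DN4. Cd4 had 68.9, 329, 23.6, 25.9 and 97.8 CPM in DN4 and 3.11, 11.2, 4.93, 4.39 and 8.3 CPM in DN2/3 (log2 fold change 3.65 ± 0.52 (SE), adjusted p = 0.0031). Cd8a had 281, 713, 136, 186 and 305 CPM in DN4 and 23.6, 27.9, 27.8, 38 and 35.1 CPM in DN2/3 (log2 fold change 3.21 ± 0.45 (SE), adjusted p = 0.00297). Replicate 2 was highest and replicate 3 lowest in DN4 for both. Markers of CD4+CD8+ double-positive thymocytes, a cell type the gate should leave out, summed to 1228 to 2816 CPM in DN4 and 877 to 1202 CPM in DN2/3 over 8 genes, of which 4 rose and 2 fell. The part of such cells in the results was not tested. In the wider list of surface markers 9 of 20 rose and 9 fell, Il2ra and Kit among the falls. Cd44, an adhesion receptor of the earliest thymocytes, fell (1.78 ± 0.428 CPM in DN4 and 9.2 ± 1.32 in DN2/3, SD, n = 5 each, log2 fold change -2.35). Il7r, the interleukin-7 receptor, fell to 30.4 ± 9.5 CPM in DN4, against 98.4 ± 31.7 in DN2/3 (SD, n = 5 each, log2 fold change -1.66).

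Of the pre-TCR signalling genes 11 of 23 rose and 7 fell, with a median of 0.12. Cd28, the costimulatory receptor, had 281, 329, 223, 125 and 249.6 CPM in DN4 and 74, 91.8, 80.7, 40.8 and 69 CPM in DN2/3 (log2 fold change 1.77 ± 0.07 (SE), adjusted p = 4.32e-06). Syk, the kinase prominent in pre-TCR signalling, had 39.9, 35.6, 36.6, 36.2 and 32.9 CPM in DN4 and 89.8, 93.9, 80.4, 75.4 and 85.1 CPM in DN2/3 (log2 fold change -1.20 ± 0.06 (SE), adjusted p = 8.95e-06). Cd3g, a chain of the CD3 complex, had 458, 522, 507, 449 and 524 CPM in DN4 and 732, 1058, 826, 827 and 867 CPM in DN2/3 (log2 fold change -0.77 ± 0.06 (SE), adjusted p = 2.2e-05). These 3 genes separated the stages in every library. Among V(D)J recombination genes 2 of 11 rose and 2 fell, and 2 passed without pairs. Dntt, the terminal transferase that adds bases at receptor joints, fell (1293 ± 108 CPM in DN4 and 1919 ± 294 in DN2/3, SD, n = 5 each, log2 fold change -0.53), and Hmgb1, a DNA-bending cofactor of the recombinase, rose (log2 fold change 0.58). Hmgb1 shares 15.4% of its 101-base stretches with pseudogene copies, which makes its value uncertain. Rag1 and Rag2, the recombinase itself, did not pass (log2 fold changes 0.46 and 0.00).

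Cytokine receptors and their feedback inhibitors fell in 14 of 27 cases and rose in 7, beside 28.5% and 31.2% of all genes tested, with a median of -0.23. Il2ra and Kit, whose RNA only checks the stage labels, are among the 14. Socs3, an inhibitor of cytokine signalling, had 20.2, 16.2, 15.3, 19.1 and 22.7 CPM in DN4 and 52, 52.3, 39.6, 58.4 and 70.3 CPM in DN2/3 (log2 fold change -1.51 ± 0.06 (SE), adjusted p = 4.32e-06). Csf2ra, a GM-CSF receptor subunit, had 10.7, 7.65, 6.78, 9.61 and 9.34 CPM in DN4 and 23.5, 22.8, 14.3, 23 and 27.5 CPM in DN2/3 (log2 fold change -1.29 ± 0.10 (SE), adjusted p = 2.2e-05). Neither overlapped between stages.

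**Figure D3:**
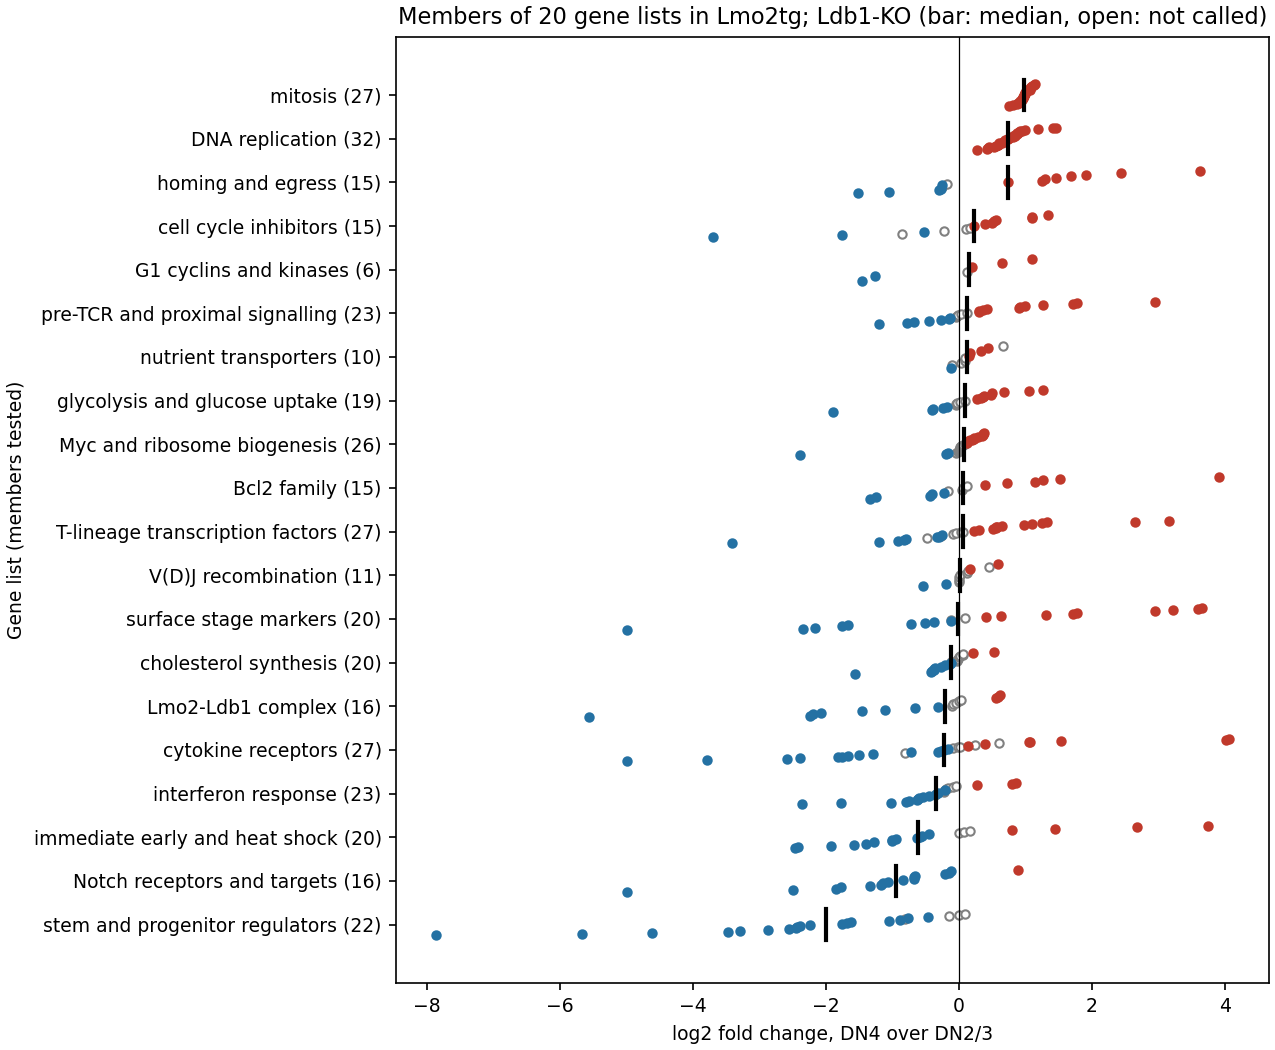
Log2 fold change (DN4 over DN2/3) of each tested member of 20 gene lists in Ldb1-KO, ordered by median (black bar). Red members rose, blue members fell and open ones were not called; mitosis (27 of 27) and DNA replication (32 of 32) lie wholly to the right, and stem and progenitor regulators (median -2.00) lie furthest left.

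The cell cycle lists were the most uniform. All 32 DNA replication genes rose (median log2 fold change 0.74, range 0.27 to 1.46), as did all 27 mitosis genes (median 0.98, range 0.76 to 1.15), beside 31.2% of all genes tested. Rrm2, the small subunit of ribonucleotide reductase, had 754, 696, 771, 669.9 and 727 CPM in DN4 and 219, 282, 338, 262 and 255 CPM in DN2/3 (log2 fold change 1.46 ± 0.09 (SE), adjusted p = 1.7e-05). Ccne1, the cyclin of the G1/S step, had 67.4, 57.4, 67, 69.4 and 69.1 CPM in DN4 and 19.4, 25.9, 27.6, 30.4 and 23.3 CPM in DN2/3 (log2 fold change 1.42 ± 0.10 (SE), adjusted p = 2.81e-05). Rfc4, a clamp-loader subunit, had 92.4, 98.6, 108, 92.8 and 94.9 CPM in DN4 and 42.3, 56.8, 69, 52.9 and 52.6 CPM in DN2/3 (log2 fold change 0.87 ± 0.07 (SE), adjusted p = 2.7e-05). Each of these was higher in every DN4 library than in any DN2/3 library. For mitosis, Birc5 (survivin) had 188, 192, 189.8, 189 and 194 CPM in DN4 and 71.8, 96.6, 102, 94.5 and 83.8 CPM in DN2/3 (log2 fold change 1.12 ± 0.07 (SE), adjusted p = 1.91e-05). Bub1, a spindle checkpoint kinase, had 166, 174, 198, 129 and 155 CPM in DN4 and 62.2, 87.7, 103, 67.2 and 75.6 CPM in DN2/3 (log2 fold change 1.09 ± 0.08 (SE), adjusted p = 2.2e-05). Mad2l1, a checkpoint protein, had 152, 154, 170.3, 136 and 138 CPM in DN4 and 62.6, 82.9, 95.8, 76.6 and 75.6 CPM in DN2/3 (log2 fold change 0.97 ± 0.07 (SE), adjusted p = 2.4e-05). The DN4 values of Birc5 were closely alike, with an SD of 2.3 CPM. Fitted in all 28 libraries without pairs, 21 of the 32 replication genes and all 27 mitosis genes passed.

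Of 6 G1 cyclins and kinases 3 rose and 2 fell. Ccnd3, the D cyclin required at this step, had 604, 589, 452, 819.5 and 719 CPM in DN4 and 262, 260.2, 264, 434 and 300.4 CPM in DN2/3 (log2 fold change 1.09 ± 0.08 (SE), adjusted p = 2.31e-05), while Ccnd2 had 84.4, 77.6, 101, 69.4 and 87 CPM in DN4 and 217, 245, 201, 192 and 168 CPM in DN2/3 (log2 fold change -1.26 ± 0.11 (SE), adjusted p = 8.43e-05). Both differences held in all 5 pairs without overlap. Cdk2 rose (197 ± 4.46 CPM in DN4 and 128 ± 12.8 in DN2/3, SD, n = 5 each, log2 fold change 0.65). Of 15 inhibitors and brakes 8 rose and 3 fell: Rb1 and Cdkn2c rose (log2 fold changes 1.10 and 1.10), Tob2 fell (-0.52), and Cdkn1a, which encodes p21 and was singled out after its values were seen, ran 0.999 to 3.51 CPM in DN4 and 17.7 to 38.8 CPM in DN2/3 (log2 fold change -3.70 ± 0.35 (SE), adjusted p = 0.00032). Rb1 shares 14.9% of its exon bases with Lpar6 and Rcbtb2, so its counts are uncertain without the strand setting.

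The promoters of the risen cell cycle genes are shown because the members moved together and their textbook control elements are short DNA words: E2F factors bind TTTCCCGC or TTTGGCGC at replication genes, and the CHR element TTTGAA lies in many mitosis genes. RefSeq promoters on GRCm38.p6, from 250 bases before to 50 after the start, were searched on both strands. An E2F word was found in 10 of 25 replication promoters (40%), against 3.13% of the 10041 tested genes with a promoter and 1.63% of all 27025 promoters, and the 23 mitosis promoters held 0. The CHR word was found in 17 of 23 mitosis promoters (73.9%), against 11.8% of tested genes and 18.1% of all promoters. These shares were counted over all list members with a promoter. They are a property of the lists and lend no weight to the stage differences. TTTGAA is short enough to occur often by its letters alone, and a match is not a binding site. The promoters below are those with the smallest adjusted p among list members that hold the word, with the matches in capitals, and none of their genes was chosen by the rule for named genes. The capitals of Pola1 (DNA polymerase alpha, chrX:93632106-93632405, minus strand) and Gins3 (a subunit of the replicative helicase, chr8:95633309-95633608, plus strand) are an E2F word read on the opposite strand. Those of Aurka (Aurora kinase A, chr2:172370521-172370820, minus strand), Cenpa (the centromeric histone, chr5:30666636-30666935, plus strand) and Cdk1 (the mitotic kinase, chr10:69352863-69353162, minus strand) are CHR words, of which Cdk1 has 2.
Pola1: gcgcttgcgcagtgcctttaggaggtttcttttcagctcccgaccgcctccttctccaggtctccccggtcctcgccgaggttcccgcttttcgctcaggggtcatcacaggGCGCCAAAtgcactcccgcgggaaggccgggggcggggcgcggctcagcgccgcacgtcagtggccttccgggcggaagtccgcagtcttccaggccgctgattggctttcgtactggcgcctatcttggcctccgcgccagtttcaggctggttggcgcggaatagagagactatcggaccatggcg
Gins3: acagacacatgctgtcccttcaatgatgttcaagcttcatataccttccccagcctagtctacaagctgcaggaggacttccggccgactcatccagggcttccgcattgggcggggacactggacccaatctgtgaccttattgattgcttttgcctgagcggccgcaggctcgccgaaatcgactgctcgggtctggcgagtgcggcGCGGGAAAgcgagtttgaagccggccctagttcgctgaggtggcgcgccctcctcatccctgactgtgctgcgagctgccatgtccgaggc
Aurka: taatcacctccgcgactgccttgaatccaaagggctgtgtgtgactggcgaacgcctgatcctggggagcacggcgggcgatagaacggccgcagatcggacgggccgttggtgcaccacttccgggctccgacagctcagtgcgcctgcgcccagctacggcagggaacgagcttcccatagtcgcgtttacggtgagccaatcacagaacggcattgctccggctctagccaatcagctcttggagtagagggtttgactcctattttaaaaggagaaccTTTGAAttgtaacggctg
Cenpa: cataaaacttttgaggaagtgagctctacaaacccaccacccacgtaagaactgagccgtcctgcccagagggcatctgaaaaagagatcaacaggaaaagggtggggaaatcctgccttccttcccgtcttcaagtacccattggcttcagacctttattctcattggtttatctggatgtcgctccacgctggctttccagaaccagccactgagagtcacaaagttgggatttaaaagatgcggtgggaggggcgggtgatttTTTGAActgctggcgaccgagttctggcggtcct
Cdk1: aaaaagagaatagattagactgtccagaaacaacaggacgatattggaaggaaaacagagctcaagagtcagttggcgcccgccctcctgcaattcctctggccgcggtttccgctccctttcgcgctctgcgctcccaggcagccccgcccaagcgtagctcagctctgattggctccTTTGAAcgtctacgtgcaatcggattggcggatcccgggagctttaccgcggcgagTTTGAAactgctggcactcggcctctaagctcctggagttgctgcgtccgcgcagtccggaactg
Pola1 RNA averaged 181 ± 34.1 CPM in DN4 and 109.5 ± 25.7 CPM in DN2/3 (SD, n = 5 each), and Cdk1 RNA 178 ± 10.1 CPM in DN4 and 93.5 ± 15.5 CPM in DN2/3. The log2 fold changes were 0.76 for Pola1, 0.82 for Gins3, 0.98 for Aurka, 0.90 for Cenpa and 0.97 for Cdk1.

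Of 26 Myc and ribosome biogenesis genes 12 rose and 3 fell (median 0.08), beside 31.2% and 28.5% of all genes tested. Npm1 and Ncl, nucleolar proteins, rose by log2 fold changes of 0.36 and 0.38, but both lost the call when all 28 libraries were fitted without pairs (adjusted p = 0.261 and 0.168). Without pairs 5 of the list passed in the 10 libraries and 1 in the 28. Npm1 shares 12.6% of its 101-base stretches with pseudogene copies. Glycolysis genes rose in 9 of 19 cases and fell in 5, with Slc16a1, the monocarboxylate carrier, at 298, 302, 337, 252 and 246 CPM in DN4 and 178, 189.7, 243, 165 and 147 CPM in DN2/3 (log2 fold change 0.67 ± 0.05 (SE), adjusted p = 2.25e-05). In this gene the lowest DN4 library lay just above the highest DN2/3 library. Cholesterol synthesis genes fell in 10 of 20 cases and rose in 2. Nsdhl, an enzyme of the pathway, had 28.3, 25.5, 32.2, 30.3 and 29.1 CPM in DN4 and 41.5, 37.7, 43.2, 33.6 and 40.1 CPM in DN2/3 (log2 fold change -0.41 ± 0.07 (SE), adjusted p = 0.000897), lower in every DN4 library than in any DN2/3 library. Nutrient transporters rose in 4 of 10 and fell in 1, with Slc7a1, an arginine carrier, at a log2 fold change of 0.43. Without pairs in the 10 libraries the counts of members changed were 7 for glycolysis, 5 for cholesterol synthesis and 2 for transporters.

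Among Bcl2-family genes 6 of 15 rose and 5 fell. Bcl2, the survival factor downstream of interleukin-7, had 82, 75.9, 93.7, 63.8 and 79.3 CPM in DN4 and 215, 242, 203, 160.2 and 195 CPM in DN2/3 (log2 fold change -1.33 ± 0.07 (SE), adjusted p = 1.19e-05). Bid, a pro-death BH3 protein, had 104, 115, 91.7, 116 and 138 CPM in DN4 and 57.2, 77.1, 57.9, 72.6 and 83.2 CPM in DN2/3 (log2 fold change 0.73 ± 0.05 (SE), adjusted p = 1.78e-05). Bcl2l2 fell (log2 fold change -1.24), but 13.3% of its exon bases overlap another gene. Bid shares 17.7% of its exon bases with Bcl2l13. Homing and egress genes rose in 8 of 15 cases and fell in 5. Ccr9, the receptor for thymic Ccl25, had 209, 408, 247, 186 and 257 CPM in DN4 and 105, 163, 131, 64.7 and 101 CPM in DN2/3 (log2 fold change 1.25 ± 0.09 (SE), adjusted p = 3.31e-05), with 21.5% of its exon bases overlapping other genes. Ccr4 had 24.3, 16.6, 19, 9.87 and 21.6 CPM in DN4 and 4.82, 4.6, 7.52, 3.56 and 4.01 CPM in DN2/3 (log2 fold change 1.91 ± 0.18 (SE), adjusted p = 7.78e-05). Ccr7 had 11.7, 21.3, 12.5, 13.7 and 14.4 CPM in DN4 and 4.74, 3.7, 5.81, 4.36 and 4.25 CPM in DN2/3 (log2 fold change 1.69 ± 0.20 (SE), adjusted p = 0.000212). These chemokine receptors were higher in DN4 in every pair without overlap, but the Ccr9 call was lost when all 28 libraries were fitted without pairs (adjusted p = 0.0621). Without pairs 7 Bcl2-family genes passed.

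Interferon-response genes fell in 13 of 23 cases and rose in 3, beside 28.5% and 31.2% of all genes tested, with a median of -0.34, while the groups overlapped in all but 2 of them. Ifi44 had 1.83, 1.62, 2.82, 1.01 and 1.28 CPM in DN4 and 7.5, 13.6, 10.6, 4.68 and 8.33 CPM in DN2/3 (log2 fold change -2.36 ± 0.19 (SE), adjusted p = 2.81e-05). Bst2, tetherin, had 64.3, 42.9, 66, 58.4 and 52.4 CPM in DN4 and 117, 84.5, 116, 87.8 and 92.3 CPM in DN2/3 (log2 fold change -0.79 ± 0.06 (SE), adjusted p = 2.2e-05). Ifit2 rose (log2 fold change 0.87). Immediate early and heat shock genes, which respond to signals and to handling of cells, fell in 13 of 20 cases and rose in 4. Junb had 132, 89.2, 80.5, 285 and 219.6 CPM in DN4 and 286, 235, 145, 511 and 431 CPM in DN2/3 (log2 fold change -1.01 ± 0.08 (SE), adjusted p = 4.32e-05). It fell in every pair, but replicates 4 and 5, the pairs with high Xist, were high at both stages, and the call was lost without pairs (adjusted p = 0.0864). The part of sex or depth in these levels was not tested. Ier2 likewise fell in every pair (log2 fold change -0.95), and Egr3, a zinc-finger factor induced by receptor signals, rose: 13.2, 15.2, 8.88, 5.42 and 17.3 CPM in DN4 and 1.4, 2.3, 1.21, 2.07 and 2.3 CPM in DN2/3 (log2 fold change 2.68 ± 0.25 (SE), adjusted p = 8.77e-05). Without pairs 6 interferon genes and 10 immediate early and heat shock genes passed. The part of handling in these results was not tested.

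Markers of cells that the gates should leave out moved with stage. Myeloid markers fell in 8 of the 9 tested, and all 13 summed to 18.2 to 26.9 CPM in DN4 and 44.5 to 59.5 in DN2/3. Elane had 0 counts in all DN4 libraries together and 1 in all DN2/3 libraries, while Lyz2 had 0.22, 0.382, 0.285, 0.649 and 0.125 CPM in DN4 and 12.3, 17.6, 11, 12.4 and 17.1 CPM in DN2/3. B-cell markers (11 genes) summed to 15.3 to 25.1 CPM in DN4 and 31.3 to 38.5 in DN2/3. Most of this sum was Cd79b, with means of 13.3 CPM in DN4 and 29.9 CPM in DN2/3. Of the 8 B-cell markers tested 4 rose and 2 fell, with a median log2 fold change of 0.645. Mature T-cell markers (10 genes, 6 up and 3 down) summed to 352 to 644 CPM in DN4 and 962 to 1506 in DN2/3. Of 8 dendritic markers tested 4 rose and 2 fell. All 10 summed to 294 to 474 CPM in DN4 and 175 to 270.2 in DN2/3, where most of the DN4 sum was Ccr9, while Itgax fell (log2 fold change -4.32), with Zbtb46 at 0 in all DN2/3 libraries. NK and innate markers summed to 236 to 429.9 CPM in DN4 and 202 to 346 in DN2/3, mostly Gzma (means 233 and 170 CPM). Gamma-delta markers summed to 75.7 to 1536 in DN4 and 299.9 to 1548 in DN2/3, mostly Cd163l1 (means 434 and 592 CPM, adjusted p = 0.101). Of 5 gamma-delta markers tested 1 rose and 1 fell. Stromal markers summed to 117 to 154 in DN4 and 200.1 to 292 in DN2/3, mostly Pecam1 (means 120 and 171 CPM). Erythroid markers summed to 6.05 to 29.7 in DN4 and 4.65 to 7.65 in DN2/3. The adult globins Hba-a2, Hbb-bs and Hbb-bt were at 0 at both stages, and the erythroid sum in DN4 came mainly from Alas2, of whose exon bases 15.5% overlap other genes. Of the mast cell list, Tpsb2, Fcer1a and Ms4a2 were at 0 throughout, and Cpa3, a carboxypeptidase, had 151, 2.53, 370.0, 196 and 30.7 CPM in DN4 and 702, 128, 508, 242 and 334 CPM in DN2/3 (adjusted p = 0.125). Megakaryocyte markers summed to 0.873 to 1.65 CPM in DN4 and 1.63 to 3.39 in DN2/3. The part of other cells in the stage differences was not tested.

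How the stage difference without Ldb1 compared with that of the other genotypes was asked in a single fit of all 28 libraries with 14 blocks of genotype and replicate number. In that fit Ldb1-KO had 6934 genes called of 14371 (48.2%), Lmo2tg 5569 (38.8%, with 20.1% lower in DN4) and wild type 8922 (62.1%, with 33.5% lower in DN4). Of the 6934 genes, 5642 were called in the same direction in wild type (81.4% of the Ldb1-KO genes and 63.2% of the wild-type genes) and 69 in the opposite one. In Lmo2tg 3558 were called in the same direction (51.3% of the Ldb1-KO genes and 63.9% of the Lmo2tg genes) and 107 in the opposite one. The test of the difference itself gave 2811 genes (19.6%) in which the Ldb1-KO and wild-type changes differed, 1468 (10.2%) with a more positive and 1343 (9.35%) with a more negative change in Ldb1-KO. Against Lmo2tg it gave 1933 genes (13.5%), 898 (6.25%) more positive and 1035 (7.2%) more negative. Both comparisons use the same Ldb1-KO libraries.

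These counts depended on the pairs. Without blocks the 28 libraries gave 31 genes against wild type and 195 against Lmo2tg, and all of these were among those called with pairs. With only the genotypes compared in the fit the counts were 4683 and 1074. Leaving out Lmo2tg replicate 4 raised the count against Lmo2tg to 3503, and leaving out Ldb1-KO replicate 1 or 5 lowered it to 999 or 1006. Against wild type the count was 1798 without Ldb1-KO replicate 2, 1789 without Ldb1-KO replicate 3, 1451 without wild-type replicate 3 and 1729 without wild-type replicate 4.

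The stage change of mitosis genes in Ldb1-KO lay between those of wild type and Lmo2tg. Mitosis genes summed to 7774, 7322, 8215, 6666 and 6577 CPM in Ldb1-KO DN4 and 3051, 3955, 4632, 3827 and 3156 CPM in Ldb1-KO DN2/3. In Lmo2tg the sums were 2734, 5656, 4273, 6942 and 4728 CPM in DN4 and 2168, 5805, 3511, 5222 and 3199 CPM in DN2/3, and in wild type 7332 to 8365 CPM in DN4 and 2575 to 2955 CPM in DN2/3. The stages stood apart in Ldb1-KO and wild type and overlapped in Lmo2tg. The change of 23 of the 27 genes was smaller than in wild type, and that of all 27 was more positive than in Lmo2tg (median differences of log2 fold changes -0.59 and 0.75). DNA replication genes summed to 8463 to 9647 CPM in Ldb1-KO DN4 and 4695 to 6298 in Ldb1-KO DN2/3, 3686 to 10827 in Lmo2tg DN4 and 4392 to 8861 in Lmo2tg DN2/3, and 10960.0 to 12322 in wild-type DN4 and 5498 to 6501 in wild-type DN2/3. Here 3 of 32 changed less positively than in wild type and 32 of 32 more positively than in Lmo2tg. With only the genotypes compared in the fit, the counts against wild type were 25 of 32 for replication and 27 of 27 for mitosis, and against Lmo2tg 28 and 26. Of all genes 9.35% were more negative than in wild type and 6.25% more positive than in Lmo2tg. Without blocks, edgeR called 0 of these replication or mitosis differences; at an unadjusted p below 0.05 it gave 2 mitosis and 1 replication gene against wild type, and 17 mitosis and 7 replication genes against Lmo2tg.

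**Figure D4:**
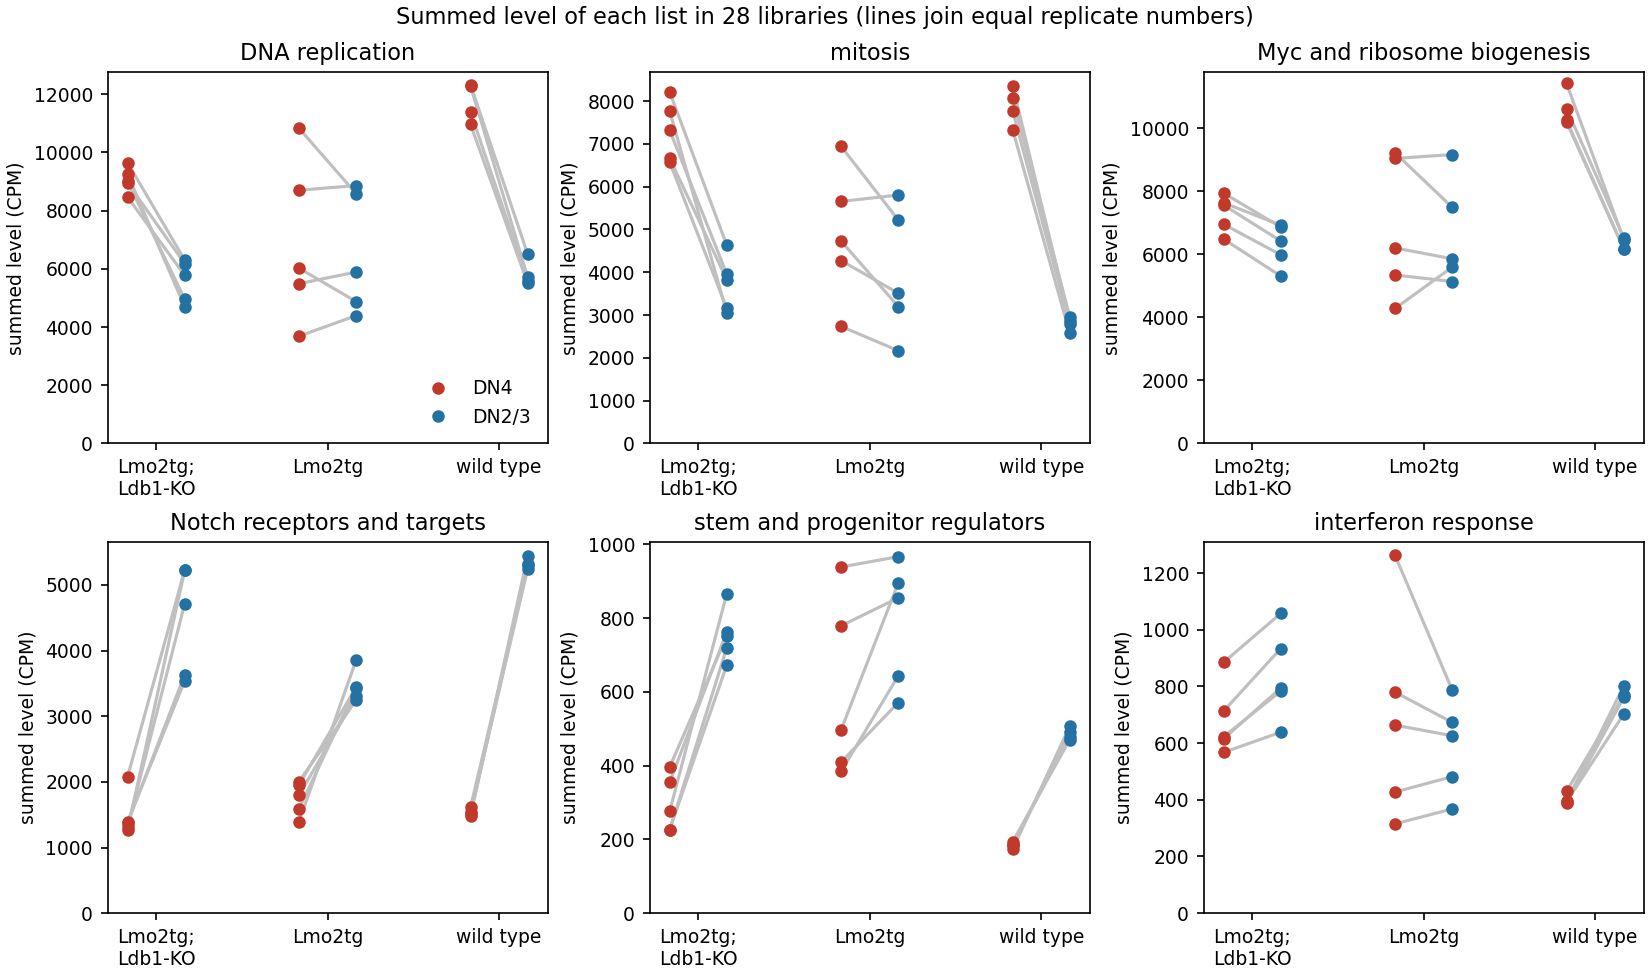
Summed level (CPM) of 6 gene lists in each of the 28 libraries, with DN4 left of DN2/3 within each genotype and lines joining equal replicate numbers. The Notch sums include Il2ra, and the stem and progenitor sums include Kit. The mitosis sums of DN4 lie above those of DN2/3 in all Ldb1-KO and wild-type libraries and mix in Lmo2tg, and the stem and progenitor sums of Ldb1-KO DN4 (225 to 396 CPM) lie below those of Ldb1-KO DN2/3.

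Growth genes showed a smaller change than in wild type. Of the 26 Myc and ribosome biogenesis genes, 19 changed less positively in Ldb1-KO than in wild type (median difference -0.51) and 1 more positively, beside 9.35% and 10.2% of all genes. Their sum was 6485 to 7946 CPM in Ldb1-KO DN4 and 5311 to 6926 CPM in Ldb1-KO DN2/3, against 10198 to 11423 CPM in wild-type DN4 and 6169 to 6527 CPM in wild-type DN2/3. In this fit interferon genes fell in 12 of 23 cases in Ldb1-KO and in 22 in wild type, beside 25.7% and 33.5% of all genes. Of the 23, 18 differed from wild type, all with a more positive change in Ldb1-KO (median difference 1.06), beside 10.2% of all genes. Stem and progenitor regulators differed from Lmo2tg in 9 of 22 cases, all with a more negative change in Ldb1-KO (median difference -1.72), beside 7.2% of all genes. From wild type they differed in 6, of which 5 were more positive and 1 more negative, beside 10.2% and 9.35% of all genes. Without blocks 5 of the list passed against Lmo2tg, and edgeR called 0 against wild type, with 6 more positive and 1 more negative at an unadjusted p below 0.05. Without blocks edgeR also called 0 of the Myc and ribosome or interferon genes against wild type, with 12 less positive and 7 more positive at an unadjusted p below 0.05.

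Single genes with the largest differences between genotypes were ranked among called genes averaging 5 CPM or more in 1 of the groups compared. Against wild type, Lysmd2 had 5.02, 7.83, 3.93, 1.17 and 8.22 CPM in Ldb1-KO DN4 and 0.114, 0.282, 0.101, 0.0532 and 0.0686 CPM in Ldb1-KO DN2/3. In wild type it had 0.41, 0.114, 0.476 and 0.228 CPM in DN4 and 0.205, 0.27, 0.183 and 0.179 CPM in DN2/3 (difference of log2 fold changes 4.82 ± 0.60, adjusted p = 0.000283). The stages stood apart in Ldb1-KO and overlapped in wild type, and the log2 fold change in Lmo2tg was 5.47 ± 0.51. Ctla2a, which resembles a cysteine protease propeptide, had 53.8, 1.18, 114, 44 and 6.73 CPM in Ldb1-KO DN4 and 286, 82.5, 182, 107 and 164 CPM in Ldb1-KO DN2/3, against 0.234, 0.944, 0.618 and 0.545 CPM in wild-type DN4 and 61.9, 78.4, 81.6 and 59.6 CPM in wild-type DN2/3 (difference 4.17 ± 1.04, adjusted p = 0.0141). Ldb1-KO DN4 libraries varied widely, while every wild-type DN4 library was below 1 CPM. In Lmo2tg, which shares the transgene, Ctla2a ran 37.3 to 531 CPM in DN4 and 107 to 289 CPM in DN2/3. Within the 10 Ldb1-KO libraries its stage change did not pass (adjusted p = 0.0746). Of its 101-base stretches 10.9% occur in copies such as Ctla2b. Clec4e, a C-type lectin, and Nxpe5 showed the same order (differences 4.85 ± 1.64 and 4.34 ± 1.18). However, the Clec4e call (adjusted p = 0.0496) held in 4 of 14 other settings, and the Nxpe5 call in 10. Within the 10 Ldb1-KO libraries neither stage change passed (adjusted p = 0.125 and 0.0534). Both were at or below 0.0507 CPM in wild-type DN4, so these differences are imprecise. In Lmo2tg DN4 Clec4e ran 8.3 to 122 CPM and Nxpe5 1.06 to 9.42 CPM.

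Cd8a, H2-Q1, H2-Q2 and Pdlim4 changed less in Ldb1-KO than in wild type. Cd8a had 57.5, 19.7, 27.2 and 29.9 CPM in wild-type DN4 and 1.26, 0.473, 0.605 and 0.536 CPM in wild-type DN2/3, so its wild-type levels were lower than those of Ldb1-KO at both stages and its fold change larger (difference -2.38 ± 0.52, adjusted p = 0.00723). H2-Q1 and H2-Q2, class I MHC genes, had differences of -3.03 ± 0.30 and -2.09 ± 0.23 (adjusted p = 0.000133 and 0.000133), and they share stretches with each other and with other class I genes. Pdlim4, a PDZ and LIM domain protein, differed by -2.54 ± 0.42. In Lmo2tg, Cd8a ran 161 to 742 CPM in DN4 and 25.6 to 92.7 CPM in DN2/3. H2-Q1 ran 13.3 to 22.2 CPM in Lmo2tg DN4 and 6.21 to 12.2 CPM in Lmo2tg DN2/3, and 13.5 to 16.9 CPM in Ldb1-KO DN4. Levels near those of Ldb1-KO were thus also present in Lmo2tg for these 2 genes. Pydc3 and Sprn had the larger changes in Ldb1-KO: Pydc3 changed by 3.47 in Ldb1-KO and -0.70 in wild type (difference 4.18 ± 0.62), and Sprn by -4.60 in Ldb1-KO and -0.86 in wild type (difference -3.74 ± 0.57). The Sprn level of Ldb1-KO DN2/3 came mostly from replicate 1, at 40.0 CPM. In Lmo2tg Pydc3 ran 0.144 to 24.3 CPM in DN4 and 0 to 0.241 CPM in DN2/3, so its rise was not particular to Ldb1-KO. Sprn was at or below 0.267 CPM in every Lmo2tg library.

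Against Lmo2tg, in a ranking with the same floor on level, the largest differences were falls seen in Ldb1-KO and not in Lmo2tg. Btk, the tyrosine kinase of B and myeloid cells (GRCm38 chrX:134542336-134583570, minus strand), had 0.71, 0.529, 0.537, 0.585 and 0.467 CPM in Ldb1-KO DN4 and 16.3, 13.9, 14.6, 12.6 and 17.3 CPM in Ldb1-KO DN2/3, against 4.12, 1.5, 0.891, 0.287 and 1.34 CPM in Lmo2tg DN4 and 0.211, 1.89, 0.247, 0.263 and 0.0903 CPM in Lmo2tg DN2/3 (difference -6.52 ± 0.69, adjusted p = 0.000115). Of these 4 groups Btk was high in Ldb1-KO DN2/3, and wild-type DN2/3 had 11.8, 11.5, 12.5 and 11.1 CPM. Bcl11a had 2.88, 0.209, 0.623, 0.0957 and 0.79 CPM in Lmo2tg DN4 and 0.079, 1.35, 0, 0.328 and 0 CPM in Lmo2tg DN2/3, below Ldb1-KO DN2/3 in every library (difference -6.34 ± 1.27, adjusted p = 0.0056). H19, an imprinted long noncoding RNA, had 2.52, 2.88, 2.48, 5.2 and 4.86 CPM in Ldb1-KO DN4 and 57.3, 318, 64, 212 and 229.7 CPM in Ldb1-KO DN2/3, against 5.53, 38, 2.14, 2.15 and 30.3 CPM in Lmo2tg DN4 and 20.7, 9.07, 2.76, 3.35 and 6.41 CPM in Lmo2tg DN2/3 (difference -5.81 ± 0.75, adjusted p = 0.00051). Lpcat2 and Npas2, a circadian bHLH-PAS factor, differed by -5.98 ± 1.18 and -5.88 ± 0.71.

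In the other direction, Arhgap19, a GTPase-activating protein of mitosis, had 148, 123, 136, 149 and 119.6 CPM in Ldb1-KO DN4 and 98.8, 78, 87.8, 87.3 and 71 CPM in Ldb1-KO DN2/3, against 101, 121, 128, 163 and 133 CPM in Lmo2tg DN4 and 343, 214, 194, 221 and 208 CPM in Lmo2tg DN2/3 (difference 1.53 ± 0.18, adjusted p = 0.000262). The gene rose in Ldb1-KO and fell in Lmo2tg, with no overlap of the stages in either. Esrp1, an epithelial splicing factor, and Plagl1, an imprinted zinc-finger gene, fell in Lmo2tg (log2 fold changes -1.64 and -1.18), and in Ldb1-KO were at or below 0.904 CPM and 0.52 CPM in every library (differences 1.97 ± 0.38 and 1.65 ± 0.29). Slco5a1 and Mfsd2b, transporters, differed by 3.31 ± 0.74 and 1.68 ± 0.25. Without blocks, Slco5a1, Esrp1, Mfsd2b and Plagl1 lost the call against Lmo2tg, and H2-Q1 alone of the 10 genes kept it against wild type.

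**Figure D5:**
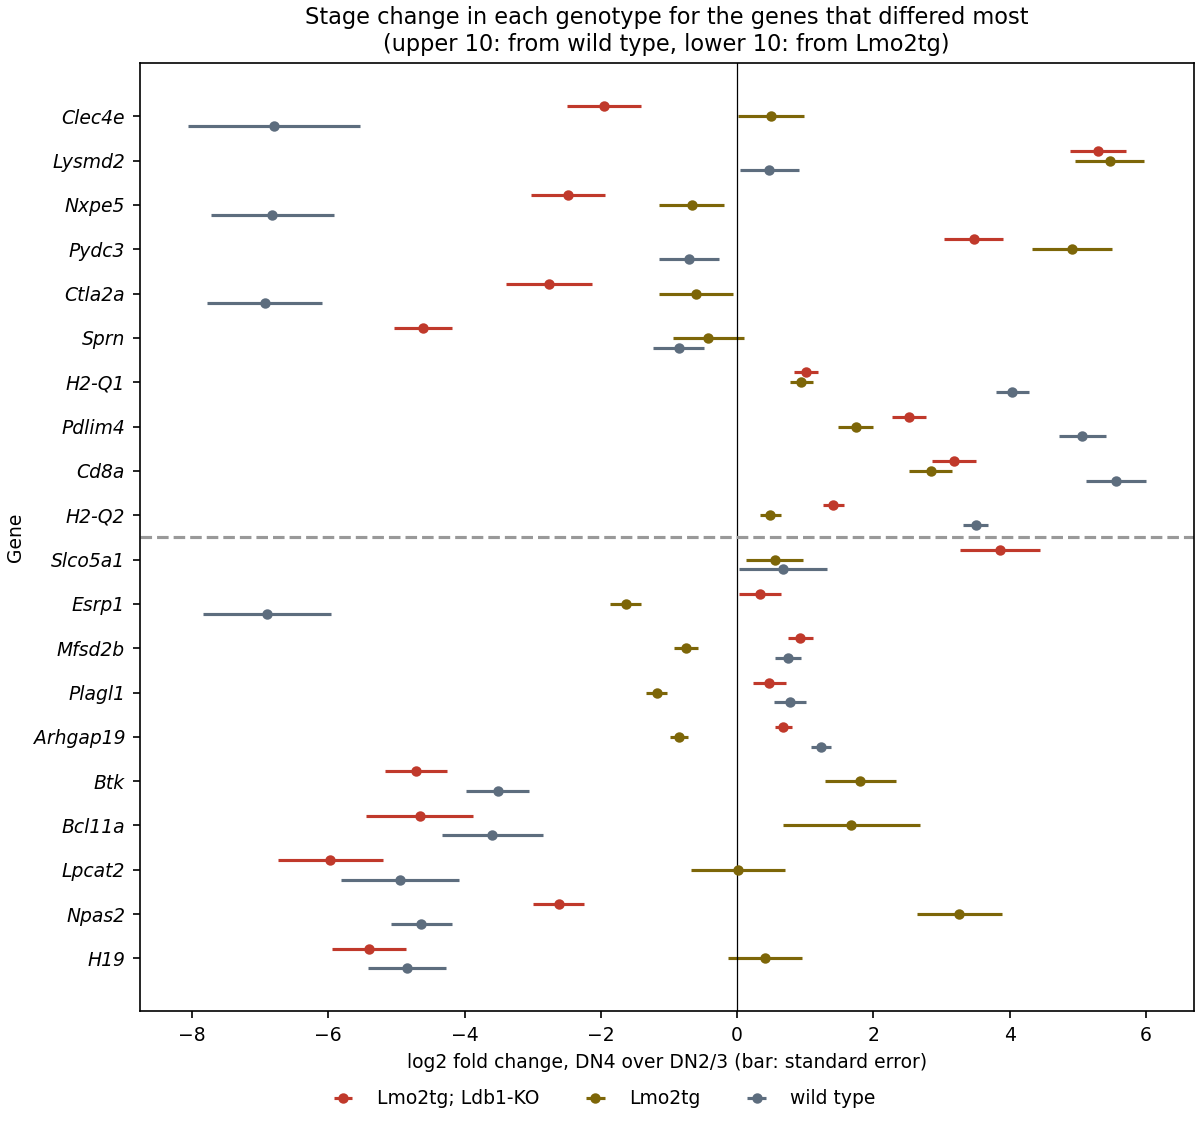
Log2 fold change (DN4 over DN2/3, bars are standard errors) in Ldb1-KO, Lmo2tg and wild type for 10 named genes per comparison. These are the 5 largest called differences in each direction among genes averaging 5 CPM or more in 1 of the groups compared. Genes above the dashed line are from the comparison with wild type, and those below it from that with Lmo2tg. Btk, Bcl11a, Lpcat2, Npas2 and H19 fell in Ldb1-KO and wild type, and Arhgap19 rose in both while it fell in Lmo2tg (-0.85).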

How the data were processed

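Messenger RNA of 28 mouse libraries was measured by RNA sequencing. The deposited values are raw read counts per gene symbol (24421 symbols). Per the submitters' processing notes, STAR 2.5.2a and featureCounts 1.4.6-p3 were used with build mm10; neither the strand setting nor the annotation is stated there. The Ldb1-KO libraries held 28.1 to 68.1 M counts.

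Genes were filtered with filterByExpr by group, scaled by TMM and tested with edgeR 4.0.16 (R 4.3.3, limma 3.58.1) by its robust quasi-likelihood test, with the replicate number as a block and Benjamini-Hochberg adjusted p below 0.05. The main comparison used the 10 Ldb1-KO libraries, and the comparison of genotypes used 28 libraries with 14 blocks. Standard errors are the log2 fold change divided by the square root of F. CPM used the TMM scaling of all 28 libraries. The scripts were tested on simulated data. Equal replicate numbers were taken as pairs by the definition of the comparison. In Ldb1-KO, deviations from the group means correlated between DN4 and DN2/3 libraries of the same number at 0.352 to 0.59. For other numbers the range was -0.387 to 0.182. With all 28 libraries scaled together, the same-number correlations were 0.289 to 0.531 in Ldb1-KO, 0.513 to 0.65 in Lmo2tg and 0.153 to 0.332 in wild type. Every DN4 library correlated best with its own number in each genotype. No library of a group was a copy of another (lowest chi-square per degree of freedom 39.2).

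The libraries, gene lists and tests were chosen with earlier results of these data known. Genes were named by rule: the transgene and the deleted gene; the 10 called genes that rose most and the 10 that fell most, if they averaged 5 CPM or more in 1 stage, moved alike in all pairs and did not overlap; the 3 members of each list with the smallest adjusted p; for each comparison of genotypes the 5 largest differences in each direction; and the most abundant marker of each other cell type. The differences between genotypes were ranked among called genes that averaged 5 CPM or more in 1 of the groups compared. Predicted genes and receptor segments were left out. A few genes that the rule names are not reported here. Il2ra, Kit, Cd4, Gata3, Tcf3, Tcf12, Trib2, Rag1, Rag2, Hhex, Erg, Lyl1, Cdkn1a and the promoter genes lie outside this rule and were chosen after their values were seen. Gene positions and shared sequence came from GENCODE M21 on GRCm38, and promoters from RefSeq on GRCm38.p6. Alternatives were fits without pairs, with fewer genotypes, with DESeq2 1.42.0, with other scalings or count filters, and without each replicate.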

Additional observations from a re-analysis of the deposited data

Results flagged for a closer look

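Of 216 groups of libraries examined for 1 library far from the rest of its group, 17 (7.87%) held one. For independent, normally distributed values chance alone gives about 1 in 20. The values here were CPM without logs, some near 0, and all came from the same 10 libraries. That rate need not hold for them, and an excess over chance was not tested. In Ldb1-KO DN4, replicate 2 was far above the others for Adam12 (23.15 CPM) and Ccr7 (21.29 CPM) and below them for Ccne1 (57.43 CPM). Replicate 4 was above the others for Notch1 (1144 CPM) and Cd163l1 (1358 CPM), replicate 5 for Cd34 (0.218 CPM) and replicate 1 for Sprn (1.014 CPM). In Ldb1-KO DN2/3, replicate 2 was above the others for Lysmd2 (0.2822 CPM), Adam12 (0.6208 CPM) and Khdc1c (33.34 CPM). Replicate 5 was above them for Pgr (30.11 CPM) and Il31ra (45.58 CPM), and replicate 1 for Sprn (40.03 CPM), while replicate 1 was below them for Cd34 (6.834 CPM). Replicate 4 was above the others for Ccnd3 (433.8 CPM) and Esrp1 (0.9036 CPM) and below them for Arpp21 (495.8 CPM).

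The stage change in Ldb1-KO differed from that in wild type by a test of the difference itself in 10 genes named by rule. The differences of log2 fold changes were 4.85 for Clec4e, 4.821 for Lysmd2, 4.336 for Nxpe5, 4.178 for Pydc3 and 4.168 for Ctla2a, and -3.744 for Sprn, -3.028 for H2-Q1, -2.544 for Pdlim4, -2.376 for Cd8a and -2.089 for H2-Q2, with adjusted p by edgeR between 0.000133 and 0.0496. Against Lmo2tg they were 3.305 for Slco5a1, 1.968 for Esrp1, 1.68 for Mfsd2b, 1.654 for Plagl1 and 1.529 for Arhgap19, and -6.517 for Btk, -6.338 for Bcl11a, -5.979 for Lpcat2, -5.882 for Npas2 and -5.809 for H19, with adjusted p by edgeR between 0.000115 and 0.0102.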

How the results depend on the processing

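The replicate block had the largest effect on the counts of genes. Without the pairs the Ldb1-KO stage comparison gave 4934 genes in its own 10 libraries and 4039 in all 28, against 7978 with pairs; 4925 and 3829 of these were among the 7978. The remaining alternatives gave 6934 to 7953 genes, and leaving out each replicate gave 6962 to 7378. The difference from wild type fell to 31 genes without the block, rose to 4683 with the compared genotypes only, and ran 1451 to 2618 when 1 replicate was left out. The difference from Lmo2tg was 195 genes without the block and 1074 with the compared genotypes only, and ran 999 to 3503 when 1 replicate was left out. DESeq2 gave 3798 genes against wild type and 2789 against Lmo2tg. No named result past the threshold changed sign under any alternative run; the stage change of Esrp1, which did not pass, ran -0.02 to 0.63. Across named genes and alternatives, 25 stage changes and 27 differences between genotypes lost their call, and 15 stage changes gained one. Of the list counts under the alternatives, 25 moved by over 1.5 times. The causes were not tested. Depth limits genes near 0 in DN4, such as Pgr, Cd34, Mpo and Tal1, whose folds rest on few counts.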

Other observations

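The Ldb1-KO DN4 libraries differed among themselves in several genes at once. Ldb1 was lowest in replicates 2 and 5, at 6.11 and 12.2 CPM. The same libraries had the lowest Cpa3 (2.53 and 30.7 CPM), Ctla2a (1.18 and 6.73 CPM), Clec4e (0.206 and 3.49 CPM) and Nxpe5 (0 and 0.249 CPM). Replicates 3 and 4 had the highest Ldb1, at 33.9 and 54.7 CPM, and the lowest Cd4, at 23.6 and 25.9 CPM. With 5 libraries no correlation was computed, and the genes were picked after their values were seen.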
